A study of Mus musculus with 86 samples.

Results

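Stromal cells of the embryonic mouse kidney were compared according to Rgs5, a regulator of G protein signalling that is widely used as a marker of pericytes and other mural cells. The cells were chosen by 4 genes in a table of RPKM values (reads divided by the length of the gene and by the size of the library). They had Six2, the nephron progenitor gene, below an RPKM of 1, the epithelial gene Mal2 below 100 and the homeobox gene Meis1, which marks stroma, at 1 or more. This held for 32 of 86 cells. Of these, 18 had Rgs5 at 10 or more and are called Rgs5-rich, 13 had Rgs5 below 1 and are called Rgs5-poor, and 1 lay between these limits. All 86 cells came from wild-type kidneys at 12.5 days post coitum (Theiler stage 20) that were pooled, dissociated with trypsin, filtered and captured singly on a Fluidigm C1 microfluidic chip, where each capture site was viewed under a microscope. No cell type is given in the labels. Because the cells share 1 pool they are 1 sample, so the sides were compared without any test. Means, SDs and ranges describe the spread over cells, and each gene is a description of these libraries.

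The renal stroma surrounds the nephron progenitors and the ureteric bud. Foxd1-expressing progenitors of the stroma give rise to pericytes, vascular smooth muscle, mesangial cells and renin cells. Mural cells wrap capillaries and arterioles and are commonly recognised by Rgs5 together with Pdgfrb, Cspg4, Notch3, Kcnj8 and Abcc9. RGS proteins speed up GTP hydrolysis by G protein alpha subunits, which shortens the signal of receptors such as those for endothelin and sphingosine 1-phosphate.

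Values of the 4 genes of the rule are a description only. Rgs5 ran from 11.4 to 1019 RPKM in the Rgs5-rich cells (median 111). It was 0 in 7 of the 13 Rgs5-poor cells and at most 0.954 in the others. The cell just below the upper limit, cell 5, had 6.55. Of all members, the highest Six2 was 0.527, and the next cell outside the limit had 1.50. Meis1 was lowest in cell 40, at 1.02, and 1 cell with 0.258 missed the limit. Mal2 did not pass 1.54 in any member, against at least 1219 in the cells left out by it. Meis1 had a median of 211 in Rgs5-rich and 196 in Rgs5-poor cells. Rgs5 reached 10 also in 13 of the 54 other cells of the series.

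Genes detected per cell, at an RPKM of 1 or more, differed between the sides mainly at the low end. Rgs5-rich cells had 4681 to 6769 detected genes with a median of 6177. Rgs5-poor cells had 3458 to 6845 with a median of 5643. Fewer than 5000 genes were found in 1 of 18 Rgs5-rich and in 5 of 13 Rgs5-poor cells. Depth was recovered only in relative terms, because low RPKM values of a gene are whole multiples of what 1 read is worth. Set to 1 at the median of all 86 cells, it ranged from 0.412 to 1.56 in Rgs5-rich cells (median 0.963) and from 0.327 to 1.94 in Rgs5-poor cells (median 1.07). The 6 members with under 5000 genes had relative depths of 0.765 to 1.94, and the cell with fewest genes, cell 45 (3458), was the deepest of all members at 1.94. The cells with few genes were thus not the shallowest. Over the 32 members, Spearman's rho of relative depth and genes detected was -0.19, as a description of cells of 1 pool.

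**Figure D1:**
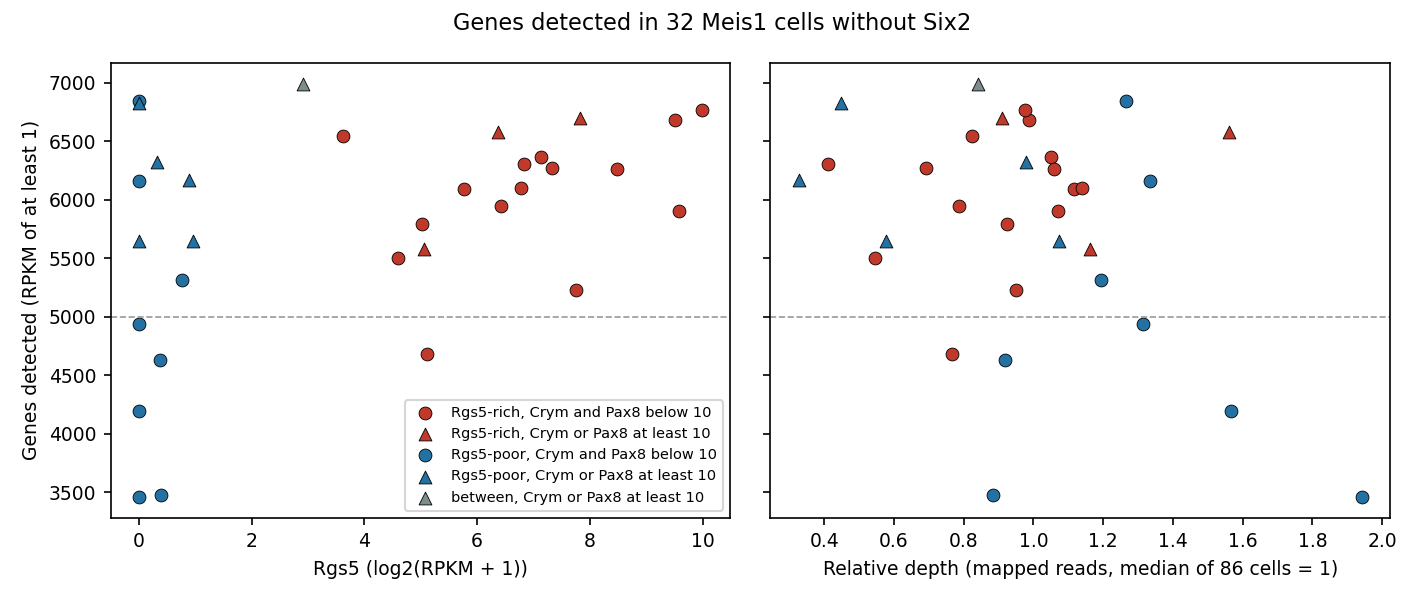
Genes detected at an RPKM of at least 1 (vertical axis) against Rgs5 on the log2(RPKM + 1) scale (left) and against relative depth, with the median of 86 cells set to 1 (right). Each point is 1 of 32 cells, triangles mark cells with Crym or Pax8 of at least 10 RPKM, and the dashed line lies at 5000 genes. Of the 6 cells below the line 5 are Rgs5-poor, and they are not the shallowest cells.

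The label of stroma was checked against markers, and it did not hold for every cell. Crym, a gene of the nephron progenitors, or Pax8, a transcription factor of induced nephron cells, reached 10 RPKM in 5 of 13 Rgs5-poor cells and in 3 of 18 Rgs5-rich cells. Among the Rgs5-poor cells, cells 32, 80 and 40 had Pax8 at 344, 173 and 67.9, while Foxd1 and Col1a1 were at 0 or near it in all of them. Cell 40 also had Wnt4 at 44.1, the signal that starts the nephron epithelium. Cells 60 and 68 had Crym at 264 and 428 and Eya1, a cofactor of Six2, at 40.8 and 72.6, beside Col1a1 at 8.51 and 8.76. Among the Rgs5-rich cells, cells 73, 61 and 30 had Crym at 45.4, 409 and 146, with Pax8 at 3.66 or less. Cell 5, between the limits, had Pax8 at 373, Wnt4 at 76.4 and the epithelial cadherin Cdh1 at 19.1, with Foxd1 at 0. Results below are therefore given also for the 15 Rgs5-rich and 8 Rgs5-poor cells without Crym or Pax8. Of these 8 cells, 5 detected fewer than 5000 genes, against 1 of the 15, so the 2 properties cannot both be set aside without leaving only 3 Rgs5-poor cells (cells 36, 38 and 19) against 14.

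The means of the general stromal genes Foxd1, Meis2, Nr2f2 and Col1a1 did not part the sides. Foxd1 ran from 0 to 42.0 in Rgs5-rich cells (median 15.1) and from 0 to 56.4 in Rgs5-poor cells (median 5.46), with a log2 ratio of (mean RPKM + 1) of 0.28, Rgs5-rich over Rgs5-poor. Meis2, a paralog of Meis1, had means of 72.5 (SD 44.0, n = 18 cells) and 76.4 (SD 72.7, n = 13 cells). The orphan receptor gene Nr2f2 had means of 272 (SD 98.0) and 275 (SD 169). Col1a1, a chain of type I collagen, had nearly the same mean on both sides, 29.1 (SD 20.6) against 29.2 (SD 37.2). It was however detected in 18 of 18 Rgs5-rich and 9 of 13 Rgs5-poor cells, with medians of 23.9 and 16.6. With the mean of log2(RPKM + 1) it was higher by 0.96 in Rgs5-rich cells. All these ranges overlapped over most of their length, although the log2 ratios of Foxd1, Meis2 and Col1a1 moved to 0.76, 0.60 and 0.75 without the cells of few genes and to -0.28, -0.43 and -0.44 without the cells with Crym or Pax8. Other stromal markers differed more. Pdgfra and Tcf21, described below, had log2 ratios of 1.75 and 1.14, and Col3a1 and Tbx18 had 0.61 and -1.37.

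Over 12356 genes, 601 were called higher in Rgs5-rich cells, which is 4.86% of them, and 317 were called lower, which is 2.57%. A call needs a log2 ratio of at least 1 in size, a mean RPKM of at least 10 and detection in at least 50% of cells, both on the higher side. It is a cut on size and has no error rate. Of the called genes 65.5% were higher, and with values divided by a size factor per cell 50.5% were, so the balance of higher and lower genes depends on the scaling. No called gene separated the sides, since their ranges overlapped in each of the 918. The log2 ratio kept its size of at least 1 with any single cell left out for 353 of the 601 higher and 102 of the 317 lower genes. Without the cells with Crym or Pax8, 973 genes (7.87%) were higher and 585 (4.73%) lower, and these held 472 of the 601 and 233 of the 317.

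Mural genes beside Rgs5 were sparse. Of 23 genes of the mural and pericyte list 18 were measured, and 2 were called higher: Ednra, the endothelin A receptor, and Pdgfrb, the PDGF receptor that recruits pericytes. None was called lower. Over all genes 4.86% were called higher and 2.57% lower. The median log2 ratio of the list was 1.30, against 0.05 over all genes, and 16 of 18 ratios were above 0, but only 3 of the 18 genes passed the filter on low values. Without the cells with Crym or Pax8, of which cell 30 is one, the median was 0.80 and no member was called.

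Mural genes were most numerous in cells 71 and 30, which had Rgs5 at 1019 and 227. Of the 18 mural genes, cell 71 had 16 detected and cell 30 had 13, while the other 16 Rgs5-rich cells had 1 to 6 (median 4.5) and the Rgs5-poor cells had 1 to 8 (median 2). Kcnj8, the pore of the ATP-sensitive potassium channel of mural cells, was at 82.2 in cell 71 and 45.1 in cell 30. It was listed at 0 in the other members except cell 16, which had 0.276. Heyl, a target of Notch signalling, was at 186 and 61.1, and Gucy1b3, the beta subunit of the nitric oxide receptor guanylate cyclase, at 116 and 61.0. Pdgfrb was at 55.9 and 102, with 64.8 in cell 24 and no more than 26.0 in any Rgs5-poor cell. These 2 cells were also the only Rgs5-rich cells with Acta2, smooth muscle actin, above 10, at 31.8 and 31.9. Without them the median of the mural list was 0.30, with 12 of 18 ratios above 0, and the log2 ratio of Pdgfrb was 0.05. These cells were singled out after their values were seen, for the number of mural genes they detect, so leaving them out had to lower the median.

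Gucy1a3, the alpha subunit of the same cyclase, was spread more widely. It was above 50 in 6 Rgs5-rich cells, from 54.4 in cell 67 to 240 in cell 31, and the lowest Rgs5 among them was 53.4. It did not pass 13.5 in any Rgs5-poor cell. Its log2 ratio was 3.42, and 3.03 without cells 71 and 30, but with detection in only 7 of 18 cells it was not called. Other defining mural genes were rare or low. Cspg4, the NG2 proteoglycan of pericytes, was detected in 5 of 18 and 2 of 13 cells. Notch3, the Notch receptor of mural cells, was found in 12 and 5 cells, with means of 4.16 (SD 4.55) and 2.37 (SD 3.89). Abcc9, which pairs with Kcnj8, was detected in 2 Rgs5-rich cells. Angpt1, the ligand of the endothelial receptor Tie2, was detected in 4 of 18 Rgs5-rich cells, with a mean of 5.95 (SD 14.4). It was listed at 0 in 13 of the 18 Rgs5-rich cells and in every Rgs5-poor cell.

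**Figure D2:**
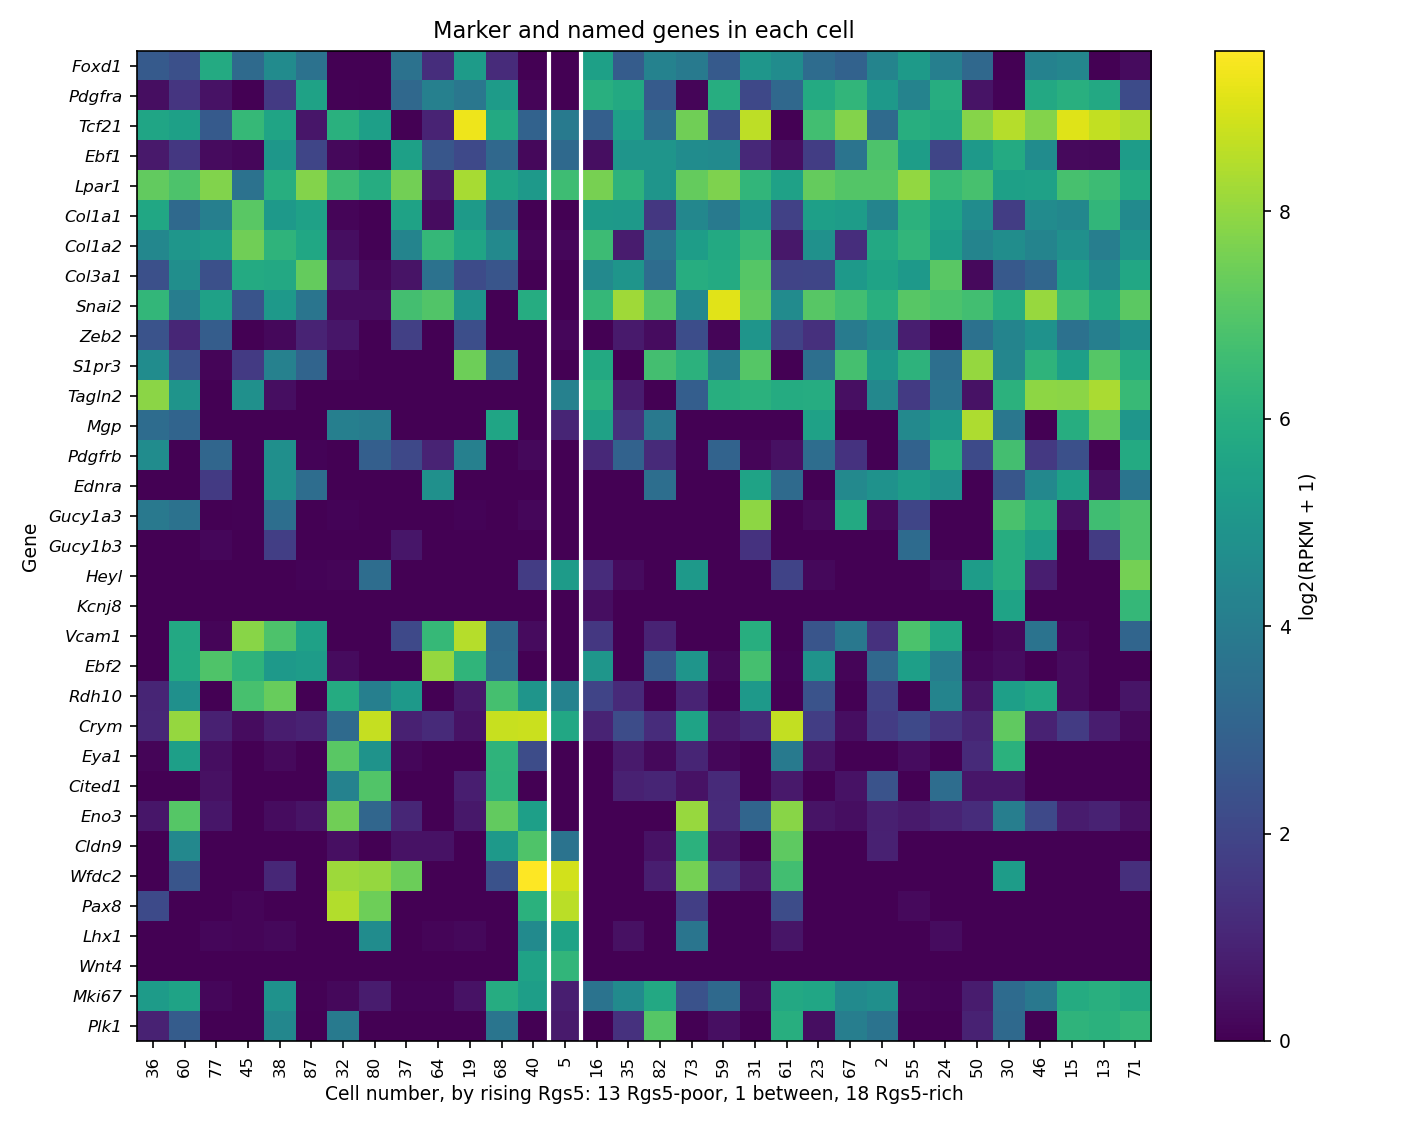
Values of 33 genes (rows) in 32 cells (columns), as log2(RPKM + 1), with cells ordered by Rgs5 from left to right and white lines around cell 5, which lies between the limits. Kcnj8 and Gucy1b3 are brightest in cells 71 and 30, and the rows from Crym to Wnt4 are bright in a few cells that are mostly Rgs5-poor.

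Smooth muscle and contractile genes gave 1 call each way among 18 measured, with a median of 0.02. Over all genes 4.86% were called higher and 2.57% lower. Tagln2, an actin-binding relative of transgelin, was called higher, with 14 of 18 against 3 of 13 cells and means of 72.8 (SD 95.6) and 22.4 (SD 64.5). Its highest Rgs5-poor value was 234 in cell 36, and without the cells with Crym or Pax8 and those of few genes, where cell 36 is 1 of 3, its log2 ratio of 1.66 became 0.03. Tpm2, a tropomyosin, was called lower at -1.14. Acta2 and Tagln, the defining genes of smooth muscle, were detected in 3 and 1 Rgs5-rich cells and in 3 and 1 Rgs5-poor cells, and Acta2 was highest in the Rgs5-poor cell 87, at 132.

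Endothelial genes gave no call. Of 20 endothelial genes 5 were measured, and only 1 of these passed the filter on low values, so the others could not be called. The summed RPKM of the 5 ran from 0 to 232 in Rgs5-rich and from 0 to 207 in Rgs5-poor cells. Ramp2, a partner of the adrenomedullin receptor, was detected in 11 of 18 and 6 of 13 cells, with means of 23.9 (SD 55.5) and 12.2 (SD 23.8), and it gave the highest Rgs5-rich sum. Emcn, endomucin, was detected in 6 of 18 and 1 of 13 cells, with a log2 ratio of 2.51, but it did not pass that filter. Blood and macrophage genes had summed values of 25.0 and 31.1 at most, over 2 measured genes of 16, none of which passed the filter. The defining endothelial genes Pecam1, Cdh5 and Kdr were not among the measured genes.

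Several transcription factors of mesenchymal cells were called higher. Of 39 stromal transcription factors measured, 6 were called higher (Snai2, Zeb2, Ebf1, Snai1, Tcf21 and Sox9) and 2 lower, among them Ebf2, with a median of -0.08. Over all genes 4.86% were called higher, and 11.7% of those that passed the filter on low values, as 23 of the 39 did. The median of the list was 0.51 without the cells under 5000 genes and -0.31 without those with Crym or Pax8, so its sign depended on the cells kept. Sox9, a factor of progenitors in many epithelia and in cartilage, had a log2 ratio of 1.02 that was 0.09 with cell 13 alone left out. Snai1, the paralog of Snai2, had 1.46, which was 0.67 without the cells under 5000 genes and -0.41 with both kinds left out. Snai2, the zinc finger repressor Slug on chromosome 16 (14705952 to 14709475, mm9), ran from 21.2 to 557 in Rgs5-rich cells with a median of 106. In Rgs5-poor cells it ran from 0 to 123 with a median of 28.8. It was detected in all 18 and in 10 of 13 cells, and 8 Rgs5-rich cells lay above every Rgs5-poor cell. Its log2 ratio was 1.82, and between 1.46 and 2.04 without the cells with Crym or Pax8, without the cells of few genes or without both. The 3 lowest Rgs5-poor cells, cells 68, 32 and 80, all carried Crym or Pax8.

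Zeb2, another repressor of epithelial genes, had means of 10.4 (SD 10.8) and 1.49 (SD 2.04) and a log2 ratio of 2.19. In all, 9 of 18 Rgs5-rich cells lay above the highest Rgs5-poor value of 5.95, and 6 of 18 were below detection. Ebf1, an early B-cell factor expressed in stroma, had a log2 ratio of 1.58, with medians of 23.3 and 1.94, and 0.94 with both kinds of cells left out. Its paralog Ebf2 went the other way, with a log2 ratio of -1.72 and medians of 0.226 and 35.3. Ebf1 was detected in 14 of 18 and 7 of 13 cells and Ebf2 in 8 of 18 and 8 of 13. Without the cells of few genes the ratio of Ebf2 was -0.46. Tcf21, a factor of kidney stroma, had medians of 139 and 42.3, and its highest value of all was the 630 of the Rgs5-poor cell 19. Its log2 ratio of 1.14 turned to -0.37 where only cells 36, 38 and 19 were left on the Rgs5-poor side.

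Receptors at the cell surface differed singly. Pdgfra, the PDGF receptor of stromal fibroblasts on chromosome 5 (75548316 to 75594229), ran from 0.0610 to 76.9 in Rgs5-rich cells with a median of 43.7. Rgs5-poor cells ran from 0 to 44.6 with a median of 1.76. It was detected in 15 of 18 (83.3%, exact 95% interval 58.6 to 96.4%) and 7 of 13 cells (53.8%, 25.1 to 80.8%), where the intervals cover counting error only. The log2 ratio of 1.75 was 1.83 without the cells with Crym or Pax8, 2.14 when cells under 5000 genes were left out and 2.73 with both kinds left out. Pdgfra was low in the mural-rich cells, at 3.50 in cell 71 and 0.0610 in cell 30.

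S1pr3, a receptor of sphingosine 1-phosphate that couples to several G proteins, was at 10 or more in 16 of 18 Rgs5-rich and 3 of 13 Rgs5-poor cells. Its medians were 57.0 and 2.11, with a log2 ratio of 1.80. Cell 19, Rgs5-poor, had 173, and leaving out this cell alone gave 3.39. Without the cells with Crym or Pax8 and those of few genes the ratio was 0.11. Among 18 vasoactive and lipid receptor genes, S1pr3, Ednra and Calcrl were called higher and Lpar6 lower, with a median of 0.51 that became -0.03 without the cells with Crym or Pax8. Over all genes 4.86% were called higher and 2.57% lower. Of those that passed the filter on low values, as 8 of the 18 did, 11.7% and 6.16% were. Calcrl, the receptor of adrenomedullin, had means of 56.9 (SD 55.4) and 24.1 (SD 37.4). Lpar6, a lysophosphatidic acid receptor, had means of 40.3 (SD 52.0) and 107 (SD 123), and it lies within Rb1, so reads of the 2 may be mixed. The log2 ratio of Lpar6 was -1.38, and -0.37 without the cells of few genes, where it was not called. Lpar1 was the same on both sides at -0.08.

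Single G protein genes other than Rgs5 were called in both directions. Of the 8 other RGS and axin genes measured, Rgs19 and Axin1 were called higher and none lower, beside 4.86% and 2.57% over all genes. Only these 2 of the 8 passed the filter on low values, so none of the others could be called. Axin1, a scaffold of the beta-catenin destruction complex that carries an RGS domain, was detected in 13 of 18 (72.2%, 46.5 to 90.3%) and 1 of 13 cells (7.69%, 0.195 to 36.0%). Its values ran to 61.2 and 6.05, and its log2 ratio was 3.51. Leaving out the cells with Crym or Pax8, those of few genes or both gave 3.30 to 4.06. Rgs19 had means of 71.4 (SD 66.5) and 33.5 (SD 62.6), and its log2 ratio of 1.07 was 0.47 without the cells of few genes. Among 22 G protein subunits, beside 4.86% higher and 2.57% lower over all genes, Gng2 was called higher at 2.04, and Gna12 and Gnai2 lower at -1.64 and -1.22, the latter 0.08 without both kinds of cells. Gng2, a gamma subunit, was at 10 or more in 11 of 18 and 1 of 13 cells and had 3.20 without the cells with Crym or Pax8.

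Matrix genes were mixed. Of 45 collagen and matrix genes, 6 were called higher (Mgp, Fbln1, Emilin1, Nid1, Nid2 and Bgn) and 2 lower (Col5a2 and Lama4), with a median of 0.02. Over all genes the shares were 4.86% and 2.57%, and over those that passed the filter 11.7% and 6.16%. Several of these calls depended on the cells kept. Without the cells with Crym or Pax8 the log2 ratio of Nid1, a nidogen of basement membranes, was 0.39 in place of 1.17, and that of the laminin chain Lama4 -0.76 in place of -1.15. Nid2, the other nidogen, was 0.65 in place of 1.14 without the cells under 5000 genes, and the proteoglycan Bgn was 0.01 in place of 1.09 with both kinds left out. Fbln1, fibulin 1, had medians of 35.1 and 0.334 and was detected in 17 of 18 and 6 of 13 cells, and its log2 ratio of 1.69 was 0.16 without both kinds of cells. Mgp, the inhibitor of calcification matrix Gla protein, had a log2 ratio of 2.35 and 4.55 without the cells with Crym or Pax8. Its median was 13.1 in Rgs5-rich and 0 in Rgs5-poor cells, and 1 cell, cell 50, had 333. Of 14 matrix proteases and inhibitors, Mmp14, Timp2, Timp3 and Serpine2 were called higher and Mmp11 lower. Timp2, an inhibitor of metalloproteinases that also takes part in activating them with Mmp14, had means of 23.1 (SD 30.5) and 2.88 (SD 6.49). Its log2 ratio was 2.64, and 1.08 or more in each of the 3 subsets.

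**Figure D3:**
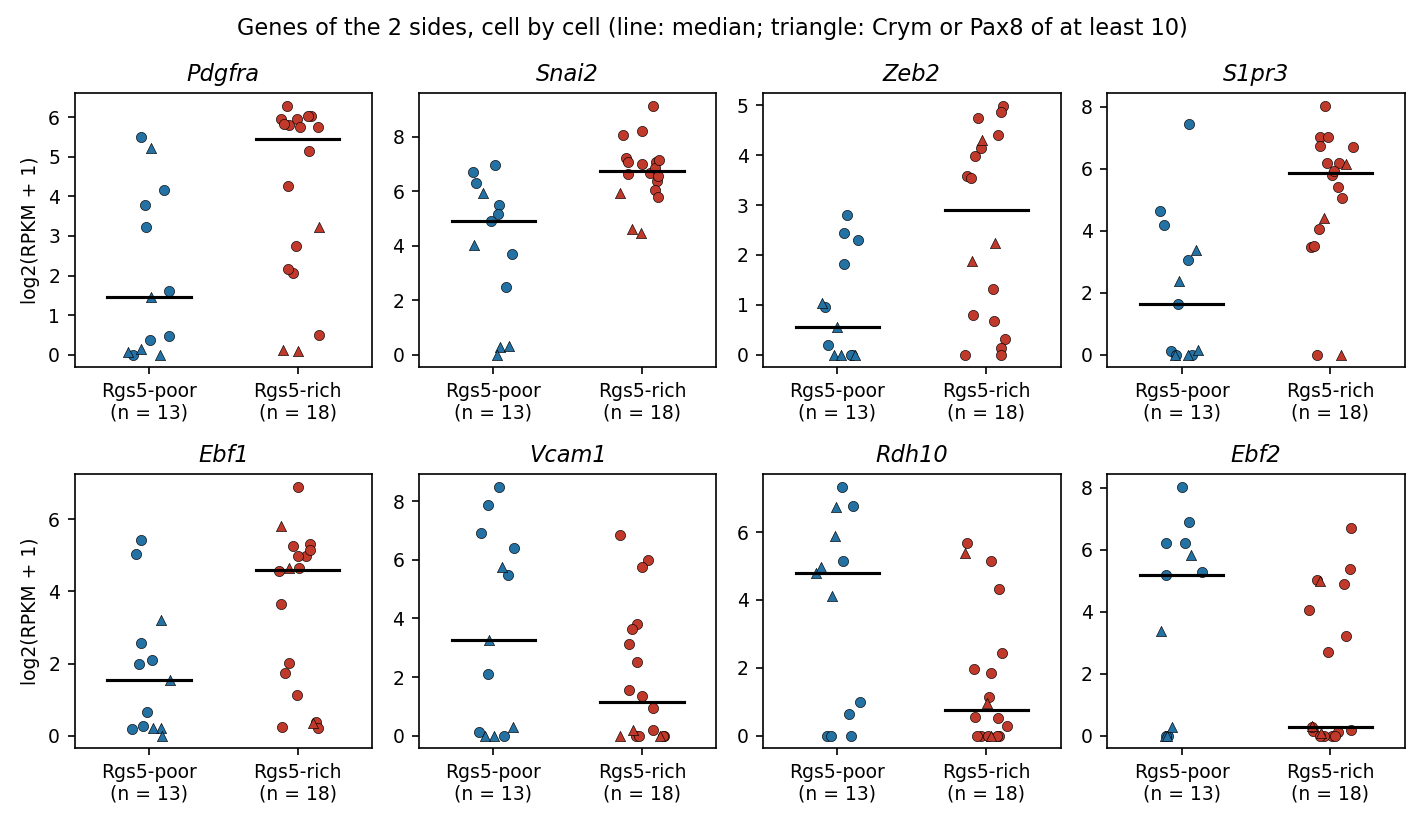
Values of 8 genes in each of 13 Rgs5-poor and 18 Rgs5-rich cells, as log2(RPKM + 1), with a line at the median and triangles for cells with Crym or Pax8 of at least 10 RPKM. Medians of Pdgfra, Snai2, Zeb2, S1pr3 and Ebf1 are higher in Rgs5-rich cells and those of Vcam1, Rdh10 and Ebf2 are lower, and the sides overlap for each gene.

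Among the genes called lower, Vcam1, an adhesion molecule that binds leukocyte integrins, ran from 0 to 113 in Rgs5-rich cells with a median of 1.25. In Rgs5-poor cells it ran from 0 to 357 with a median of 8.51. It was at 10 or more in 5 of 18 and 6 of 13 cells, and its log2 ratio was -2.13. That ratio was between -2.98 and -2.01 in the 3 subsets. Rdh10, which makes the retinaldehyde that retinoic acid synthesis uses, had medians of 0.695 and 26.9 and was at 10 or more in 4 of 18 and 8 of 13 cells. Its log2 ratio was -2.13, and -2.16 to -2.56 in the subsets. Aldh1a2, which turns retinaldehyde into retinoic acid in the cortical stroma, had means of 376 (SD 298) and 247 (SD 258) and was not called. Alcam, an adhesion molecule, was called lower at -1.13. That ratio was -0.59 with cell 45 alone left out and -0.93, not called, without cells under 5000 genes. It was -1.83 without the cells with Crym or Pax8 and -2.07 with both kinds left out.

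Nephron genes gave 1 call each way, beside 4.86% higher and 2.57% lower over all genes. Of 15 nephron progenitor genes, Crym was called lower at -1.77 and Gdnf, the ligand that draws out the ureteric bud, higher at 1.73. Of 10 induced nephron genes none was called, with a median of -0.96. Only 2 of these 10 and 4 of the 15 progenitor genes passed the filter on low values, so the others could not be called. Pax8 was among those, with a log2 ratio of -5.10 and detection in 2 of 18 Rgs5-rich and 4 of 13 Rgs5-poor cells. Pax8 had means of 0.345 (SD 0.997) and 45.2 (SD 103), and its median was 0 on both sides. Crym and Pax8 belong to these lists, so the medians of both lists without the cells that carry them, 0.13 and 0.00, follow in part from that choice of cells and support nothing. Gdnf was at 10 or more in 8 Rgs5-rich cells and in 1 Rgs5-poor cell, and its log2 ratio was 1.59 without the cells with Crym or Pax8 and 2.98 when cells under 5000 genes were left out.

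Genes of the G2 and M phases of the cell cycle were higher together. Of 23 such genes 11 were called higher and none lower, and all 23 ratios were above 0, with a median of 1.00. All 23 passed the filter on low values, and of the 5144 genes that passed it 11.7% were called higher. Ube2c, an ubiquitin-conjugating enzyme of the anaphase-promoting complex, had means of 214 (SD 323) and 60.6 (SD 84.0) and a log2 ratio of 1.80. Plk1, a mitotic kinase, had 25.0 (SD 39.1) and 4.15 (SD 7.02), and Ccna2, cyclin A2, had 26.3 (SD 36.9) and 6.07 (SD 9.14). Ccnb2 and Cdca8, also called higher, were detected in 11 and 12 of 18 Rgs5-rich cells and each in 9 of 13 Rgs5-poor cells. The summed RPKM of the 23 genes had medians of 688 and 408. It was highest in the Rgs5-rich cells 82, 35, 71 and 67, at 4230, 3559, 3468 and 3123. The 23 ratios share these cells and are not separate observations. None of 20 S phase genes was called, and their median was -0.15.

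The G2 and M genes moved with the number of genes detected and with the cells carrying nephron genes. A median of 19.5 of the 23 was detected in Rgs5-rich cells (range 3 to 23) and 12 in Rgs5-poor cells (2 to 23). The Rgs5-poor cells were not alike: those with Crym or Pax8 had a median of 21, and those without had 5.5. Of the 5 Rgs5-poor cells with under 5000 genes, none had more than 7. The median ratio was 0.47, with 5 genes called, when cells under 5000 genes were left out. It was 1.74, with 20 called, when cells with Crym or Pax8 were left out. What part detection and cell identity have in this difference was not tested.

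**Figure D4:**
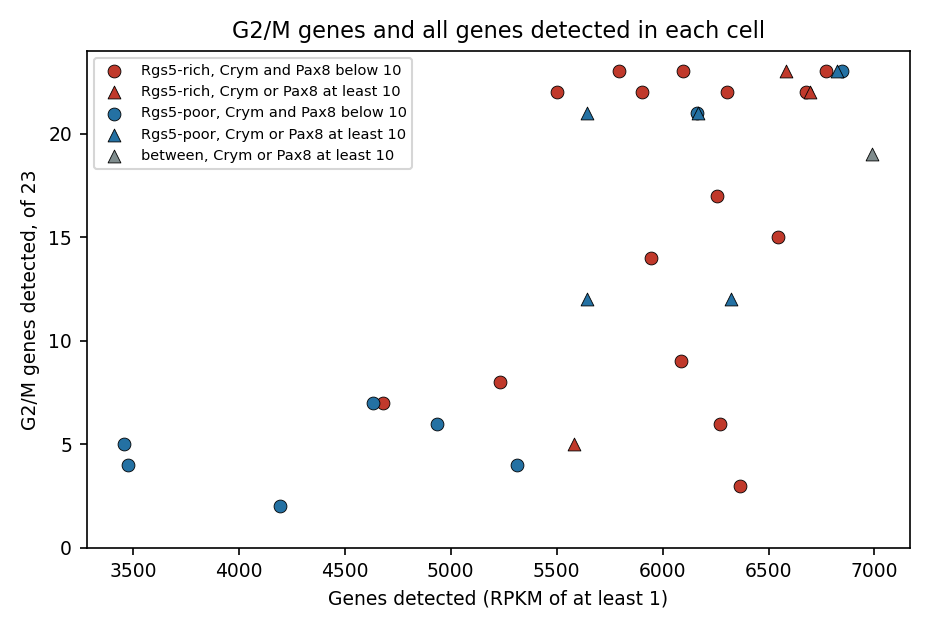
Number of 23 G2 and M genes detected (vertical axis) against all genes detected at an RPKM of at least 1 (horizontal axis) in each of 32 cells. The 6 cells under 5000 genes have at most 7 of the 23, and among Rgs5-rich cells with more genes the number runs from 3 to 23.

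Signalling lists gave from 0 to 3 calls each. Over all genes 4.86% were called higher and 2.57% lower, and over those that passed the filter 11.7% and 6.16%. The calls below describe single genes and not their pathways. In the PDGF list of 6 genes, Pdgfra and Pdgfrb were called, both described above. Fzd1, a Wnt receptor, was the one call among 26 Wnt genes, at 1.37, and Tgfbr1, a TGF-beta receptor, the one among 23 genes of the TGF-beta and BMP pathways, at -1.05. Vegfb and Ephb4 were called higher and Ptn lower among 19 angiogenic ligands and chemokines. Itgb1, the beta 1 integrin chain, was detected in every cell of both sides and called higher at 1.25, with means of 80.5 (SD 75.5) and 33.3 (SD 30.2). The immediate early gene Zfp36 was called higher, and the glycolysis genes Pfkm and Slc2a1 lower. Meg3 and Zim1, both imprinted, were called higher. Spry4, a feedback inhibitor of FGF signalling, was the one call among 14 FGF genes, at 1.04, and Rdh10 the one among 14 of the retinoic acid pathway. Without the cells with Crym or Pax8, Spry4, Zfp36 and Zim1 were no longer called. Notch, hedgehog, posterior Hox, stress and Ifitm genes gave no call in either direction with all cells. In that order, 1 of 12, 3 of 10, 4 of 11, 6 of 12 and 2 of 3 measured genes passed the filter on low values. The others could not be called with all cells, whatever their ratio. Without the cells under 5000 genes, 1 hedgehog gene was called lower, and 2 stress genes and 1 Ifitm gene higher. Without the cells with Crym or Pax8, 1 hedgehog gene was called lower.

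Stromal zones and other cell types were described by further lists. Of 14 genes of the cortical and nephrogenic stroma Vcam1 alone was called, with a median of 0.24. Without the cells with Crym or Pax8, 5 of the 14 were called lower, beside 4.73% of all genes. Of 14 genes of the medullary and ureteric stroma, Snai2 and Sox9 were called higher and Alcam lower, beside 4.86% and 2.57% over all genes. The median of this list was 0.88, and -0.01 with both kinds of cells left out, and only 4 of its genes passed the filter on low values. None of 13 ureteric bud genes, 4 renin lineage genes and 8 neural genes was called. No gene of these lists passed the filter on low values, so none could be called whatever its ratio. The renin gene Ren1 was not among the measured genes.

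**Figure D5:**
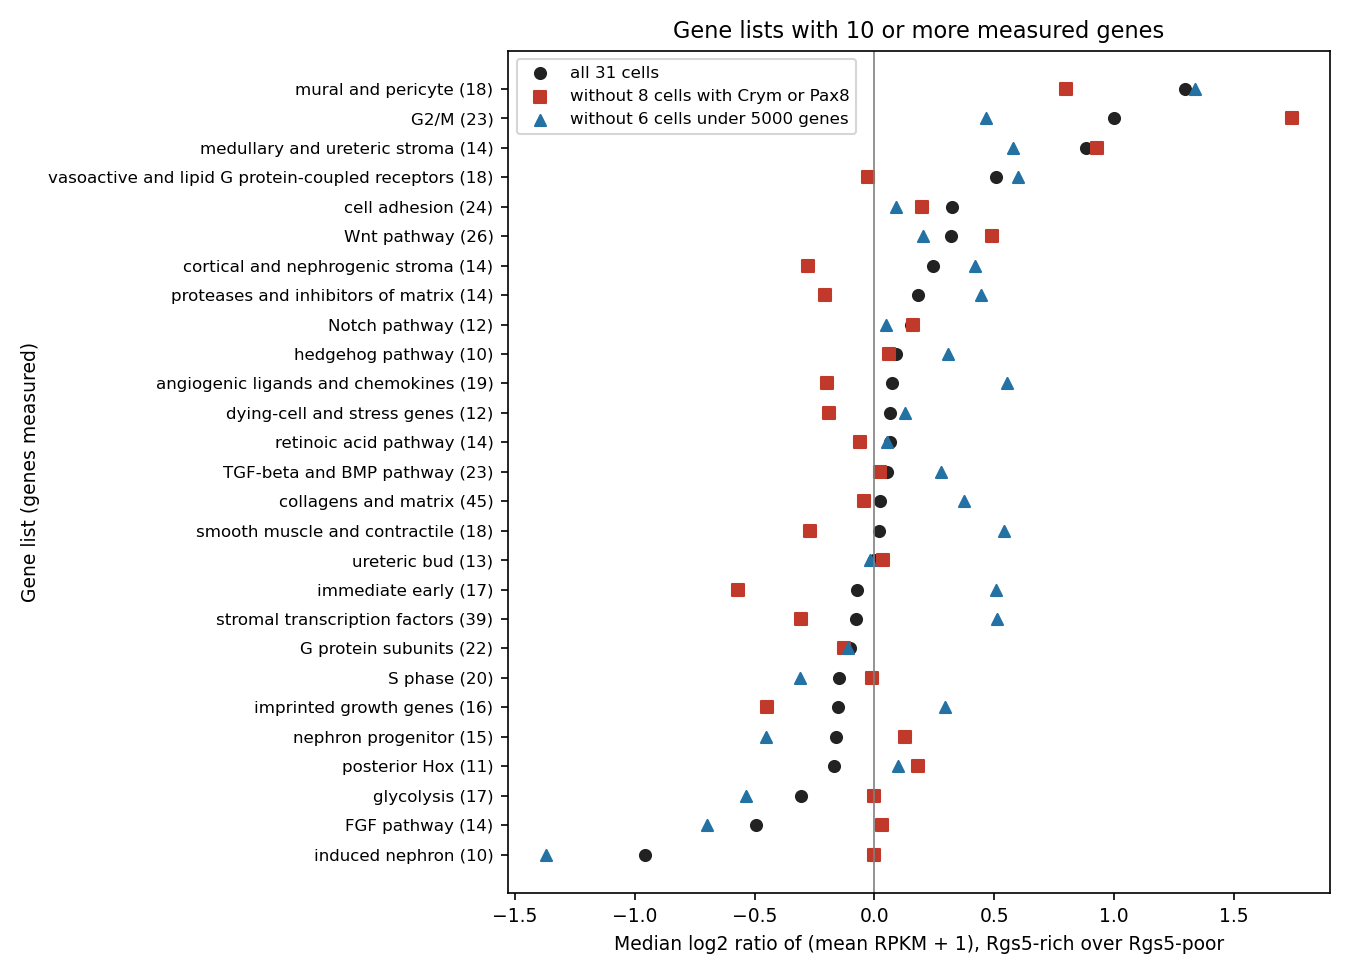
Median log2 ratio of (mean RPKM + 1), Rgs5-rich over Rgs5-poor, for gene lists with at least 10 measured genes, with the number measured in brackets. Circles use all 31 cells of both sides, squares leave out the 8 cells with Crym or Pax8 and triangles leave out those under 5000 genes. The mural and G2/M lists lie farthest to the right with all cells, at 1.30 and 1.00, and the induced nephron list farthest to the left, at -0.96.

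The highest ratios among all called genes belonged to genes of many roles. The 15 highest were Osbpl11, Cdc42ep4, Plag1, Fbxw17, Mpi, Axin1, Mgat3, Rhoq, Tceal1, Hibch, Scarb1, Tbcd, Zfp788, Renbp and Rps6kb2, with log2 ratios from 3.16 to 3.93. Osbpl11, an oxysterol-binding protein relative, was detected in 11 of 18 and 0 of 13 cells (interval 0 to 24.7%). Plag1, a zinc finger activator of growth genes, had means of 17.9 (SD 20.5) and 0.469 (SD 0.953), and 11 Rgs5-rich cells lay above every Rgs5-poor cell. Cdc42ep4, an effector of the small GTPase Cdc42, and Rhoq, a GTPase related to Cdc42, had log2 ratios of 3.89 and 3.50. Mgat3, which adds the bisecting sugar to N-glycans, was detected in 13 of 18 and 0 of 13 cells. These ratios were 2.49 or more in each of the 3 subsets for the 6 genes Osbpl11, Cdc42ep4, Plag1, Axin1, Mgat3 and Rhoq.

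The 15 lowest were Dnalc4, Fam175a, Ak3, Snord2, C030048B08Rik, Cluap1, Wfdc2, Trit1, Cyb5r4, Pex14, Glt8d1, Itfg3, Dgcr6, Mms19 and 1110057K04Rik, from -3.77 to -2.29. Wfdc2, a secreted protein of epithelia, was high in cells with nephron genes, such as cell 40 with 748, and in cell 37 with 170, and its ratio was -0.19 without those cells and the cells of few genes. Fam175a, a scaffold of a BRCA1 complex, was detected in 3 of 18 and 9 of 13 cells and kept -2.21 in that subset, whereas Pex14, of peroxisome import, changed sign to 0.06. Snord2 lies within Eif4a2, Rhoq overlaps Pigf, Tbcd overlaps B3gntl1, and Ak3, C030048B08Rik, Dgcr6, Glt8d1, Mms19, Tcf21, Ebf2, Pfkm, Plk1 and Ccna2 each overlap another listed gene. Whether the counting used the strand is not given in the sources used here, so reads of such pairs may be mixed.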

How the data were processed

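RNA of 86 single cells was measured, and the authors deposited 1 table of RPKM for 12360 genes. Its own count column shows that every listed gene passed an RPKM of 3 in 3 or more cells. Per the submitters' processing notes the tools were TopHat 1.4.1 and DESeq and the build mm9, whose roles are not stated. Library totals were not recovered, and relative depths were taken from the low values below an RPKM of 1 (3649 of 3655 pairs of cells within 1e-06 on the log2 scale). RPKM was used as deposited, with a pseudocount of 1. Where a symbol stood at several loci (26 rows), the plain symbol is the locus of higher mean and the others were kept as rows of their own. Rgs5, Six2, Mal2 and Meis1 were left out of the comparison. The members and the 34 gene lists were chosen with earlier results of these data known. Named genes were the 15 highest and 15 lowest called ratios, the 2 highest and 2 lowest of each list with a mean RPKM of at least 1 on either side, and a fixed set of stromal and mural genes; genes called in a list and single cells were named after their values were seen. Shares have exact Clopper-Pearson 95% intervals. No doublet caller was run. A second table of 35 cells was not used, since it holds no member. Python 3.11.15, numpy 2.4.6, pandas 2.3.3, scipy 1.17.1 and matplotlib 3.10.9 were used, and the calculations were tested on simulated data. Alternatives changed the averaging, pseudocount, scaling, filters, limits of the rule and cells kept. Some genes of the lists are not reported here by name.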

Additional observations from a re-analysis of the deposited data

How the results depend on the processing

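The 601 higher and 317 lower genes were counted again under 14 other settings, 3 of them chosen after seeing the data. With the mean of log2(RPKM + 1) there were 1080 and 197. Without cells under 5000 genes 534 were lower, with Rgs5-poor cells at exactly 0 548, and with no filter on detection 722. Without cells with Crym or Pax8 there were 973 and 585, and without these and the cells under 5000 genes 1136 and 853, from 14 against 3 cells. The share of called genes that were higher was 65.5%, and 50.5% with size factors, 84.6% with the mean of log2 values, 53.1% without cells under 5000 genes and 53.3% with no filter on detection. Leaving out 1 cell at a time gave 548 to 656 higher and 316 to 415 lower genes. The median of all genes moved from 0.05 to 0.16 with the mean of log2 values and to 0.23 without both kinds of cells. Of 57 called genes named by the rule, 6 changed sign: Pex14 to 0.27 without cells 3 median absolute deviations below the median of detected genes, to 0.080 without cells under 5000 genes and to 0.056 without both kinds, Slc2a1 to 0.51 with Rgs5-poor at 0, and without both kinds Glt8d1 to 0.33, Pdgfrb to -0.93, Tcf21 to -0.37 and Tpm2 to 0.36. None changed sign with 1 cell left out. The causes were not tested. The value of genes detected per cell, median of Rgs5-rich cells, was 5337.5 at an RPKM of 3 and 7790 above 0, and that of genes detected per cell, median of Rgs5-poor cells, was 7214 above 0. No paired analysis was possible because the cells are 1 sample and no test was made.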
